A study of Mus musculus with 19 samples.

Results

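The genes described here encode the machinery of DNA replication and mitosis, taken as a list of 34 symbols that runs from the MCM helicase to the motors of the mitotic spindle. A symbol was measured where the array annotation gives it a probe set that lists 1 gene, and the brightest such probe set was used where there were several. On that rule 33 of the 34 genes were measured, of 22180 genes in all, and Ccnb1 was not analysed here. Affymetrix arrays read the transcripts of isolated mouse hearts kept alive by Langendorff perfusion, a flow of buffer driven backwards through the aorta. Every heart had 20 min of stabilisation, 20 min of ischemia without flow and 20 min of reperfusion before freezing, so no group is free of ischemia. The groups were Rev-erb alpha knockout (KO) mice at ZT12 (n = 5), wild-type (WT) mice at ZT12 (n = 7) and WT mice at ZT0 (n = 7), where ZT0 is lights on and ZT12 lights off. The labels give the strain C57Bl6J for WT mice and no strain for KO mice, so genotype and strain background cannot be told apart. They give no age and do not describe the deletion. Replicates are called biological in the labels, and p-values measure the spread between these arrays.

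As background, a cell that divides loads the MCM helicase onto DNA, copies the genome behind the sliding clamp PCNA, and then builds a spindle that pulls the copies apart under the control of cyclin-dependent kinases. E2F factors drive the replication genes, and the DREAM and B-MYB complexes, which act through a promoter element called CHR, hold the mitotic genes down in resting cells and raise them late in the cycle. Adult cardiomyocytes seldom divide, and the dividing cells of an adult heart are mostly endothelial cells, fibroblasts and blood-derived cells. Rev-erb alpha, encoded by Nr1d1, is a clock repressor, and AGGTCA is a half-site of the DNA it binds. The comparisons ask how the loss of Rev-erb alpha and the time of day are related to the transcripts of the reperfused heart.

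Promoter windows from RefSeq (GRCm38.p6), from 250 bases before to 50 bases after the annotated start, were found for 30 of the 34 genes, and the 4 without one were Aurkb, Ccna2, Kif20a and Mcm4. The windows below belong to Kif11, which had the smallest p-value of all members, to Ccnb2, a gene with several matches, and to E2f7 and E2f8, which had an unadjusted p under 0.05 in both comparisons that involve WT hearts at ZT12. Kif11 lies at chr19:37376132-37376431 on the plus strand, Ccnb2 at chr9:70421505-70421804 on the minus strand, E2f7 at chr10:110745189-110745488 on the plus strand and E2f8 at chr7:48881547-48881846 on the minus strand. Each is written 5′ to 3′ along the gene, and capitals mark matches to the E2F, CHR and CCAAT motifs on either strand.
Kif11: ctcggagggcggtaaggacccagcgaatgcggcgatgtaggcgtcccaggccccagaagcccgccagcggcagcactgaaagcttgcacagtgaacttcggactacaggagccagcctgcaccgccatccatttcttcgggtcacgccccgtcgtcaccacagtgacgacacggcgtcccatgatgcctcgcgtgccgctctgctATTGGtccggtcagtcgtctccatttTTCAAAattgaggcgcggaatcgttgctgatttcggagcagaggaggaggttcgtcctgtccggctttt
Ccnb2: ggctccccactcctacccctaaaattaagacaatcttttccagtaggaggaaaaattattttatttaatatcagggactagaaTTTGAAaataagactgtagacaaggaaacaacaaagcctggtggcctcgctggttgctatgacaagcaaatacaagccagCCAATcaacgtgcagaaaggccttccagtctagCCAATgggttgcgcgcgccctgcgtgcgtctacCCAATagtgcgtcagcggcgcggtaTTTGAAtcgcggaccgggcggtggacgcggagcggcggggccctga
E2f7: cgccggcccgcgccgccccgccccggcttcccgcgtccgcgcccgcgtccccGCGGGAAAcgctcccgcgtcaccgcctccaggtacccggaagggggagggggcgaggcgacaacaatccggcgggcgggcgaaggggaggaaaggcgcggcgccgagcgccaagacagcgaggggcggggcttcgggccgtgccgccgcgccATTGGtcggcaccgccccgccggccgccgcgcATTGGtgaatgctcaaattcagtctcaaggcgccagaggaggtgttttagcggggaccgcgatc
E2f8: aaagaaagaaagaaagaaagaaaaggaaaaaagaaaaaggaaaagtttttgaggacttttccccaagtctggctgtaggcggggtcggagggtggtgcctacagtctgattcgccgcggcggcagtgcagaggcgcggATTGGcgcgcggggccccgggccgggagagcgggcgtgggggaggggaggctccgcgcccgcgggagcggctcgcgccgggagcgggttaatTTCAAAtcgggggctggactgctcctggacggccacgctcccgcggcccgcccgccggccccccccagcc

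In these windows Ccnb2 had 3 CCAAT matches, at 87, 54 and 21 bases before the start, and 2 CHR matches, 167 bases before and 5 bases after it. Kif11 had a CCAAT match 45 bases and a CHR match 19 bases before the start, and E2f8 had a CHR match 20 bases before it. E2f7 had an E2F match 198 bases before the start and no CHR match. Over all members with a window, an E2F motif (TTTCCCGC, TTTGGCGC, TTTCGCGC or TTTGCCGC) was present in 6 of 30 (20%), against 2.32% of 27025 gene windows of the same length. A CHR motif (TTTGAA or TTCGAA) was present in 18 (60%, against 19.4%) and CCAAT in 25 (83.3%, against 37.9%). Of 8 replication genes 4 held an E2F motif (Mcm3, Mcm5, Mcm6 and Mcm7) and 2 a CHR motif, whereas of 19 mitosis genes 1 held an E2F motif (Cdk1) and 15 a CHR motif. CCAAT was in 7 of 8 replication and 16 of 19 mitosis windows. The AGGTCA half-site was present in 5 member windows (16.7%, against 16% of all windows), those of Pcna, Kif2c, Mcm2, Ttk and Ccnb1, none of them among the 4 shown. The E-box CACGTG, bound by the clock activators, was present in 2 (Tyms and Ttk; 6.67%, against 7.24%). All searches covered both strands, and a match is a run of letters, not a measured binding site. For Rev-erb alpha only the half-site was searched, so the shares do not describe full sites.

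The samples as a whole were alike, with array medians of 3.25 to 3.32 log2 units and correlations of 0.972 to 0.985 between arrays, and the number of arrays limits the precision. Nr1d1 was at 6.35, 6.40, 6.30, 6.36 and 6.51 in KO hearts at ZT12, against a lowest, median and highest value of 6.46, 6.64 and 7.28 in WT hearts at ZT12 (log2 difference -0.35, SE 0.15; limma adjusted p = 0.374). The position of its probes relative to the deletion is not given in the sources used here, so Nr1d1 does not check the labels. Arntl, a clock gene that Rev-erb alpha represses, averaged 6.54 ± 0.22 in KO hearts and 4.08 ± 0.21 in WT hearts at ZT12 (SD, n = 5 and 7), and it was higher in KO hearts (log2 difference 2.45, SE 0.099; limma adjusted p = 1.24e-12) with no overlap. Cardiomyocyte markers, the mean of 6 genes, were at 11.18 to 11.25 in KO hearts, 11.12 to 11.18 in WT hearts at ZT12 and 11.14 to 11.21 in WT hearts at ZT0, as the label heart requires. The atrial muscle gene Sln, which encodes sarcolipin, set 4 arrays apart: it was at 4.43, 5.80 and 3.64 in KO replicates 2, 4 and 5 and at 5.09 in WT ZT12 replicate 5, and at 8.48 or more on all other arrays. Arrays low in atrial transcripts therefore made up 3 of 5 KO arrays, 1 of 7 WT ZT12 arrays and 0 of 7 WT ZT0 arrays. Total counts of members, and most counts of list genes that passed or lay below 0, are given with and without them.

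Of the 33 members 21 lay at or above 3.20 log2 units, the level under which 95% of 1105 olfactory receptor genes lay, a rough guide to background in heart because probe sets differ in brightness. The 6 MCM genes, Pcna, Rrm2 and Tyms were all among these 21, with Pcna at a mean of 7.33. The other 12 members lay below it, and 7 of them are described one by one (E2f8, Bub1b, Cenpe, Kif11, Kif2c, Nusap1 and Top2a). For these 7 genes the signal can be largely background, so their differences and intervals describe probe set values near that level. Of the other members described one by one, Ccna2 (mean 3.23), Plk1 and Prc1 (3.46), Cdc20 (3.51) and E2f7 (3.53) lay not far above it. Background can weigh on their values too. Members spread within groups much as other genes did, with a median within-group SD of 0.194 for members (0.123 to 0.376) and 0.183 for all genes. In bulk tissue, fewer dividing cells and less RNA per dividing cell cannot be told apart.

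In KO against WT hearts at ZT12, 0 of 33 members passed the test at an adjusted p under 0.05, in a comparison in which 0.730% of all genes passed (0.442% higher and 0.289% lower in KO hearts). At an unadjusted p under 0.05, 11 members were lower in KO hearts (33.3%, against 5.21% of all genes) and 0 were higher (against 5.35%). The same differences, counted without any test on single genes, were below 0 for 27 of 33 members (81.8%, against 51.0% of all genes). The members were chosen with earlier results of these data known, and the unadjusted counts were added after the data were seen. These shares are therefore descriptions. The median log2 difference was -0.11 over members and -0.0030 over all genes, and members ranged from -0.44 for Nusap1 to 0.27 for Cenpf, with limma adjusted p from 0.136 to 0.984. Groups did not separate for any member, while among all genes 0.969% lay without overlap above WT hearts and 0.428% below them. The mean of the 33 members was 3.47 to 3.59 in KO hearts (median 3.53), 3.59 to 3.71 in WT hearts at ZT12 (median 3.65) and 3.51 to 3.71 in WT hearts at ZT0 (median 3.61), so KO and WT hearts at ZT12 met only at 3.59.

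The count of lower members was repeated without the 4 arrays low in Sln, and the part of lost hearts in the change was not tested. All genes called at an adjusted p under 0.05 went from 162 to 19 without these arrays. Without them, with 2 KO and 6 WT ZT12 hearts left, 3 members (E2f7, Kif11 and Nusap1) had an unadjusted p under 0.05 and a lower level in KO hearts (9.09%, against 4.13% of all genes). The median log2 difference was then -0.14, and 27 of 33 members were below 0, against 51.2% of all genes. With the mean of 6 atrial markers as a covariate over all arrays, 10 members were lower at an unadjusted p under 0.05 (30.3%, against 5.05% of all genes). With that covariate 24 members were below 0, and the share of all genes below 0 in that setting is not given here. The atrial markers themselves were at 5.19 to 9.22 in KO hearts, 5.70 to 9.26 in WT hearts at ZT12 and 7.83 to 9.50 in WT hearts at ZT0, with a median log2 difference of -1.3 between KO and WT hearts at ZT12. Endothelial markers were at a median log2 difference of 0.024 with 1 of 6 below 0 (list means of 7.86 to 8.03 in KO hearts and 7.76 to 8.05 in WT hearts at ZT12), and fibroblast markers at -0.0030 with 3 of 6 below 0 (7.21 to 7.94 and 7.48 to 7.84). Of 6 macrophage markers 5 were below 0 in KO hearts (median log2 difference -0.24, 0 passing the test), with list means of 5.46 to 6.37 in KO hearts and 6.09 to 6.48 in WT hearts at ZT12. Without the arrays low in Sln the medians were 0.48 for atrial, 0.11 for endothelial, 0.14 for fibroblast and -0.10 for macrophage markers. Below 0 were then 1, 1, 0 and 4 of 6 markers in the same order. Lymphocyte and thymus markers stayed near background at 2.59 to 2.76 in KO hearts and 2.56 to 2.94 in WT hearts at ZT12, and a log2 intensity has no zero that would mark absence. The only gene of the 11 marker lists that passed here was the mesothelial gene Lrrn4, which fell in KO hearts (log2 difference -0.53; limma adjusted p = 0.0359), a call lost without the arrays low in Sln (log2 difference -0.42; limma adjusted p = 0.475). Of 6 cardiomyocyte genes 2 were higher in KO than WT ZT12 hearts at an unadjusted p under 0.05 (33.3%, against 5.35% of all genes). These were Ryr2 at 0.21 log2 units, without overlap, and Myl2 at 0.18 over all arrays (limma adjusted p = 0.106 and 0.345). At that level 0 were lower. The list means of these groups met only at 11.18. The median of the 6 was 0.028 with 2 below 0, and 0.010 with 3 below 0 without the arrays low in Sln. The part of these tissues in the member values was not tested.

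**Figure D1:**
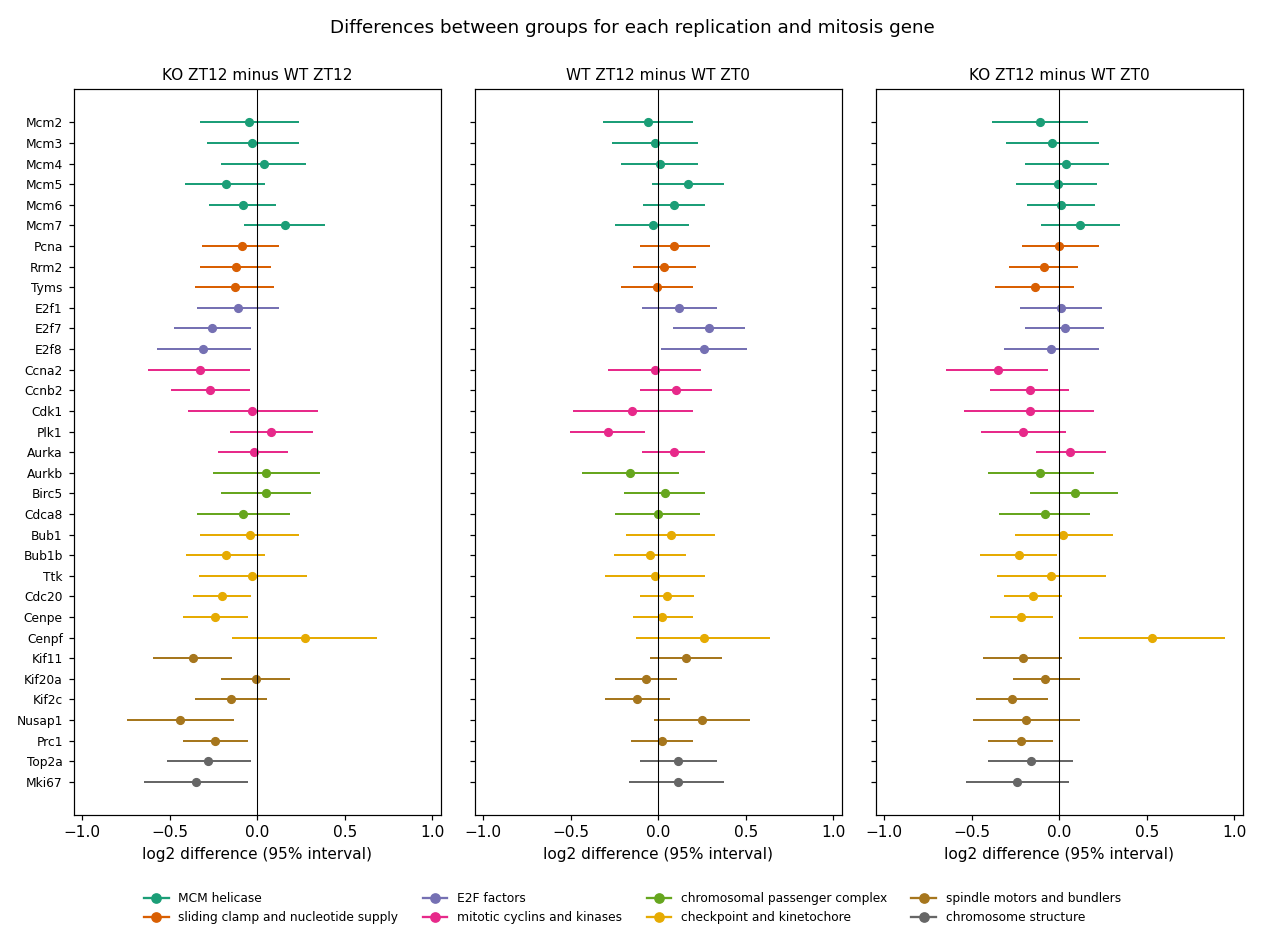
Log2 difference of each of the 33 measured genes (points, coloured by role) with its 95% confidence interval from limma (bars), for KO ZT12 minus WT ZT12, WT ZT12 minus WT ZT0 and KO ZT12 minus WT ZT0. In the KO ZT12 minus WT ZT12 panel 27 of 33 points lie left of 0, and no gene passes an adjusted p of 0.05 in any panel.

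Among the replication genes, the 6 MCM subunits, which form the ring that unwinds DNA, had a median log2 difference of -0.036 in KO against WT hearts at ZT12, with 4 of 6 below 0. They ran from -0.18 for Mcm5 to 0.16 for Mcm7. The clamp gene Pcna, the ribonucleotide reductase gene Rrm2 and the thymidylate synthase gene Tyms, of which Rrm2 and Tyms serve the supply of DNA building blocks, were all below 0 with a median of -0.12. None of these 9 genes had an unadjusted p under 0.05 in any of the 3 comparisons.

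The E2F factors had a median log2 difference of -0.26 between KO and WT hearts at ZT12, with all 3 below 0. E2f7 and E2f8 encode atypical repressors that shut E2F targets off late in S phase, and E2f1 encodes an activator. E2f8 was at 2.89, 2.79, 2.94, 2.42 and 3.13 in KO hearts, against a lowest, median and highest value of 3.01, 3.09 and 3.48 in WT hearts at ZT12. All but KO replicate 5 lay below every WT ZT12 heart (log2 difference -0.31, SE 0.13; limma adjusted p = 0.379). E2f7 was at 3.32, 3.23, 3.38, 3.81 and 3.48 in KO hearts, against 3.34, 3.75 and 3.85 (lowest, median, highest) in WT hearts at ZT12. The groups overlapped, with KO replicate 4 above the WT median (log2 difference -0.26, SE 0.11; limma adjusted p = 0.375).

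The mitotic cyclins and kinases had a median log2 difference of -0.029 between KO and WT hearts at ZT12. Ccnb2, which encodes cyclin B2, a partner of the kinase that starts mitosis, was at 4.01, 4.10, 4.24, 3.85 and 3.90 in KO hearts, against 3.98, 4.32 and 4.54 (lowest, median, highest) in WT hearts at ZT12. All 5 KO hearts lay below the WT mean, within the WT range at 3 of them (log2 difference -0.27, SE 0.10; limma adjusted p = 0.330). Ccna2, which encodes cyclin A2 of S phase and early mitosis, was at 3.38, 2.56, 2.98, 3.20 and 2.77 in KO hearts, against 2.98, 3.28 and 3.74 (lowest, median, highest) in WT hearts at ZT12. KO replicate 1 lay above the WT median (log2 difference -0.33, SE 0.14; limma adjusted p = 0.372). Plk1, the gene of polo-like kinase 1, which drives entry into mitosis, was at 3.56, 3.46, 2.94, 3.42 and 3.66 in KO hearts, against 3.12, 3.31 and 3.62 (lowest, median, highest) in WT hearts at ZT12, a log2 difference of 0.08 (SE 0.11). The kinase genes Cdk1 and Aurka were among the members with an unadjusted p of 0.104 or more.

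The spindle motors and microtubule bundlers had a median log2 difference of -0.24 between KO and WT hearts at ZT12, and all 5 were below 0. Kif11, which encodes the motor that pushes the spindle poles apart, was at 2.88, 2.81, 2.84, 3.06 and 3.13 in KO hearts, against 3.05, 3.25 and 3.67 (lowest, median, highest) in WT hearts at ZT12. KO replicates 1, 2 and 3 lay below every WT ZT12 heart and the other 2 within the lower part of the WT range. The means were 2.94 ± 0.14 in KO hearts and 3.31 ± 0.23 in WT hearts at ZT12 (SD, n = 5 and 7), a log2 difference of -0.37 with a 95% interval of -0.59 to -0.15 and an adjusted p of 0.136 by limma, for a probe set whose mean lies just under the olfactory receptor level. Nusap1, which encodes a protein that bundles spindle microtubules around chromosomes, was at 3.29, 2.93, 2.51, 3.06 and 2.86 in KO hearts, against 3.18, 3.20 and 4.07 (lowest, median, highest) in WT hearts at ZT12. The value of 4.07 came from WT ZT12 replicate 5, an array low in Sln. The log2 difference was -0.44 (SE 0.14; limma adjusted p = 0.210) over all arrays and -0.33 without that array. Prc1, which encodes a protein that crosslinks the microtubules of the central spindle, was at 3.47, 3.21, 3.31, 3.21 and 3.27 in KO hearts, against 3.34, 3.47 and 3.81 (lowest, median, highest) in WT hearts at ZT12. All KO hearts but replicate 1 lay below the lowest WT ZT12 heart (log2 difference -0.24, SE 0.088; limma adjusted p = 0.283).

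Among the genes of the spindle checkpoint and kinetochore, 5 of 6 were below 0 in KO against WT hearts at ZT12, with a median of -0.11. Cenpe, which encodes a motor that moves chromosomes to the spindle centre, was at 2.61, 2.61, 2.72, 2.53 and 2.36 in KO hearts, against 2.71, 2.79 and 2.95 (lowest, median, highest) in WT hearts at ZT12. Only KO replicate 3 entered the WT range (log2 difference -0.24, SE 0.086; limma adjusted p = 0.280). Cdc20, the activator of the ubiquitin ligase that starts anaphase, was at 3.27, 3.51, 3.47, 3.22 and 3.45 in KO hearts, against 3.32, 3.62 and 3.74 (lowest, median, highest) in WT hearts at ZT12. All KO hearts lay below the WT median, with overlap (log2 difference -0.20, SE 0.079; limma adjusted p = 0.345). Cenpf, which encodes a large kinetochore protein, was at 5.30, 5.20, 5.22, 5.84 and 6.45 in KO hearts, against 4.75, 5.38 and 5.70 (lowest, median, highest) in WT hearts at ZT12. KO replicates 4 and 5 were above every WT heart and the other 3 below the WT median. Its log2 difference was 0.27 over all arrays (limma adjusted p = 0.683), 0.06 without KO replicate 5 and -0.17 without the 4 arrays low in Sln.

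Both genes of chromosome structure were below 0 in KO against WT hearts at ZT12. Mki67, which encodes the Ki-67 protein that coats mitotic chromosomes and marks dividing cells in pathology, was at 4.56, 4.0, 4.60, 4.58 and 4.42 in KO hearts, against 4.55, 4.86 and 4.94 (lowest, median, highest) in WT hearts at ZT12. All KO hearts lay below the WT median, and 3 of them overlapped the WT range (log2 difference -0.35, SE 0.14; limma adjusted p = 0.350). Without the 4 arrays low in Sln the log2 difference of Mki67 was -0.17. Top2a, the gene of topoisomerase II alpha, which untangles sister chromosomes, was at 3.11, 3.01, 3.20, 3.01 and 2.78 in KO hearts, against 3.20, 3.27 and 3.45 (lowest, median, highest) in WT hearts at ZT12. KO replicate 3 met the lowest WT ZT12 heart at 3.20 and the other 4 KO hearts lay below it (log2 difference -0.28, SE 0.11; limma adjusted p = 0.373). The chromosomal passenger genes Aurkb, Birc5 and Cdca8, which correct faulty spindle attachments, had a median of 0.048, with 1 of 3 below 0.

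**Figure D2:**
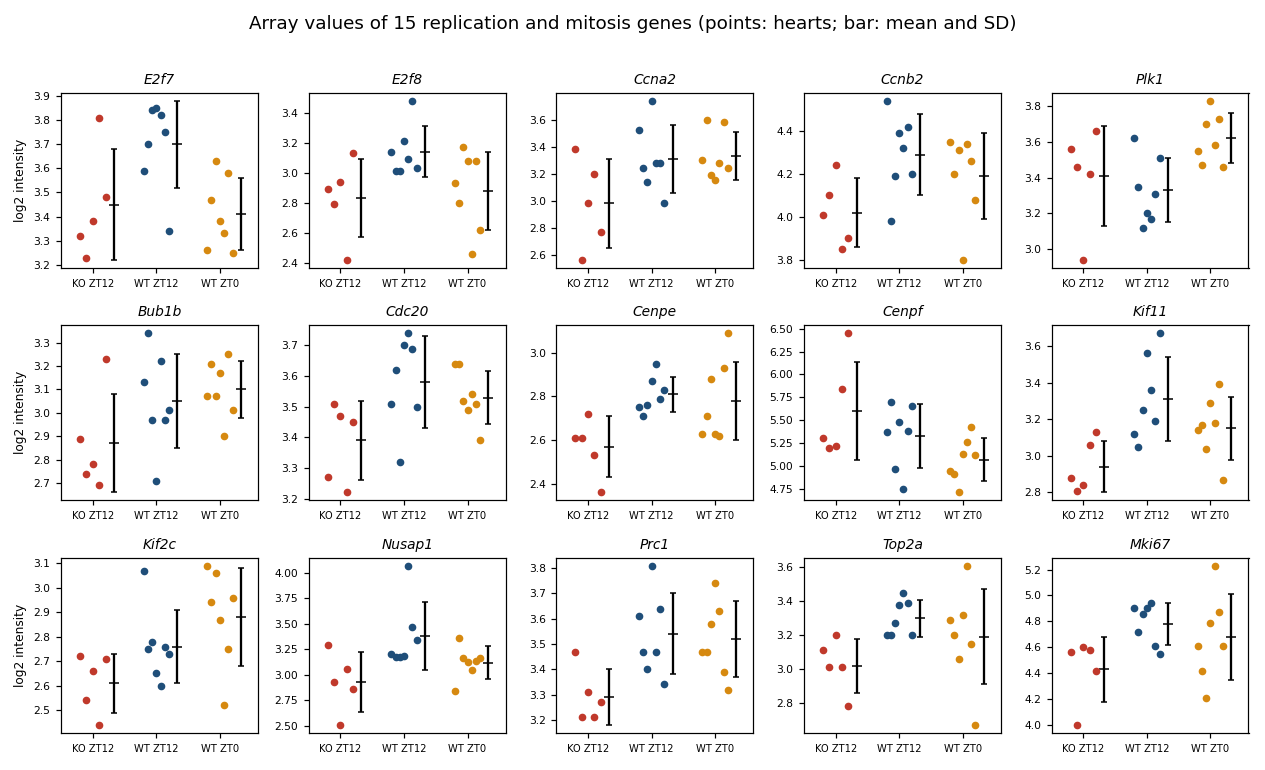
Log2 array values of the 15 members described one by one (points are hearts, bars the mean and SD), with KO ZT12 (n = 5), WT ZT12 (n = 7) and WT ZT0 (n = 7) from left to right. KO values lie below the WT ZT12 range or in its lower part for genes such as Kif11 and Cenpe, and Cenpf has its highest value, 6.45, in a KO heart.

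Between WT hearts at ZT12 and at ZT0, 0 of 33 members passed the test, in a comparison in which 1.13% of all genes passed (0.645% higher and 0.482% lower at ZT12). At an unadjusted p under 0.05, 2 members (E2f7 and E2f8) were higher at ZT12 (6.06%, against 5.76% of all genes) and 1 (Plk1) was lower (3.03%, against 5.73%). These shares are near the background. Below 0 were 13 of 33 members (39.4%, against 51.2% of all genes), with a median log2 difference of 0.032. Without the 4 arrays low in Sln 12 members were below 0 (median 0.048), against 51.5% of all genes. At an unadjusted p under 0.05, 4 were then higher (Cenpf, E2f7, E2f8 and Mcm5). Only Plk1 was lower (3.03%, against 5.91% of all genes). The share of all genes higher in that setting is not given here, so the 4 cannot be set against a background. The endothelial gene Kdr, which encodes a receptor for VEGF, fell at ZT12 (log2 difference -0.52; limma adjusted p = 0.00160), and all 6 endothelial markers were below 0 (median -0.074). With the 4 low-Sln arrays left out, Kdr kept its call (log2 difference -0.52; limma adjusted p = 0.00742) and 5 of the 6 markers were below 0. The part of endothelial cells in the member values was not tested. Members ranged from -0.29 for Plk1 to 0.29 for E2f7, with limma adjusted p from 0.198 to 0.997.

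E2f7 was at 3.34, 3.75 and 3.85 (lowest, median, highest) in WT hearts at ZT12, against 3.25, 3.38 and 3.63 in WT hearts at ZT0. Of the ZT12 hearts 6 of 7 lay above the ZT0 mean (log2 difference 0.29, SE 0.096; limma adjusted p = 0.198). E2f8 was at 3.01, 3.09 and 3.48 at ZT12, against 2.46, 2.93 and 3.17 at ZT0, with all 7 ZT12 hearts above the ZT0 mean and the ranges overlapping (log2 difference 0.26, SE 0.12; limma adjusted p = 0.391). Plk1 was at 3.12, 3.31 and 3.62 at ZT12, against 3.46, 3.58 and 3.83 at ZT0 (log2 difference -0.29, SE 0.10; limma adjusted p = 0.242). Nusap1, at 3.18, 3.20 and 4.07 at ZT12 and 2.84, 3.14 and 3.36 at ZT0, had a log2 difference of 0.25 (limma adjusted p = 0.479), which was 0.13 without WT ZT12 replicate 5. The comparison of KO with WT hearts at ZT12 uses the same 7 WT ZT12 arrays, so the values of the comparisons are not independent. For E2f7 and E2f8 the KO hearts differed from WT hearts at ZT0 by 0.03 and -0.05 log2 units.

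KO hearts at ZT12 and WT hearts at ZT0 differ in genotype, in time and in atrial transcripts, with arrays low in Sln only among the KO hearts. Between these groups 0 of 33 members passed the test, against 1.34% of all genes (0.965% higher and 0.379% lower in KO hearts). At an unadjusted p under 0.05, 5 members were lower in KO hearts (Bub1b, Ccna2, Cenpe, Kif2c and Prc1; 15.2%, against 6.15% of all genes) and 1 was higher (Cenpf; 3.03%, against 6.44%). The median log2 difference was -0.092, and 23 of 33 members were below 0 (69.7%, against 52.2% of all genes). All 6 atrial markers were lower in KO hearts at an unadjusted p under 0.05 (median log2 difference -2.1). Of 6 macrophage markers 3 were lower and 1 was higher (median -0.29), and 0 of either list passed the test. Without the 4 arrays low in Sln these medians were 0.085 and -0.14. The part of macrophages in the member values was not tested. With the atrial marker mean as a covariate the count of lower members was 0 (against 5.02% of all genes). Without the 4 arrays low in Sln it was 1 (Plk1, 3.03%, against 4.33% of all genes). Under both alternatives 23 of 33 members were below 0, with medians of -0.11 with the covariate and -0.083 without those arrays. Without those arrays 52.6% of all genes were below 0, and that share is not given for the covariate.

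Kif2c, which encodes a kinesin that takes microtubules apart at kinetochores, was at 2.72, 2.54, 2.66, 2.44 and 2.71 in KO hearts, against 2.52, 2.94 and 3.09 (lowest, median, highest) in WT hearts at ZT0 (log2 difference -0.27, SE 0.096; limma adjusted p = 0.212). Its values in WT hearts at ZT12 were 2.60, 2.75 and 3.07 (lowest, median, highest). Bub1b, the gene of the checkpoint protein BubR1, was at 2.89, 2.74, 2.78, 2.69 and 3.23 in KO hearts, against 2.90, 3.07 and 3.25 in WT hearts at ZT0 (log2 difference -0.23; limma adjusted p = 0.354). All KO hearts but replicate 5 lay below the lowest WT ZT0 heart. Ccna2 differed by -0.35 (limma adjusted p = 0.256), Cenpe by -0.22 (limma adjusted p = 0.281) and Prc1 by -0.22 (limma adjusted p = 0.274). Cenpf, at 4.71, 5.12 and 5.42 in WT hearts at ZT0, was above the WT ZT0 mean in all 5 KO hearts (log2 difference 0.53, SE 0.20; limma adjusted p = 0.242). That difference was 0.32 without KO replicate 5 and 0.19 without the arrays low in Sln.

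**Figure D3:**
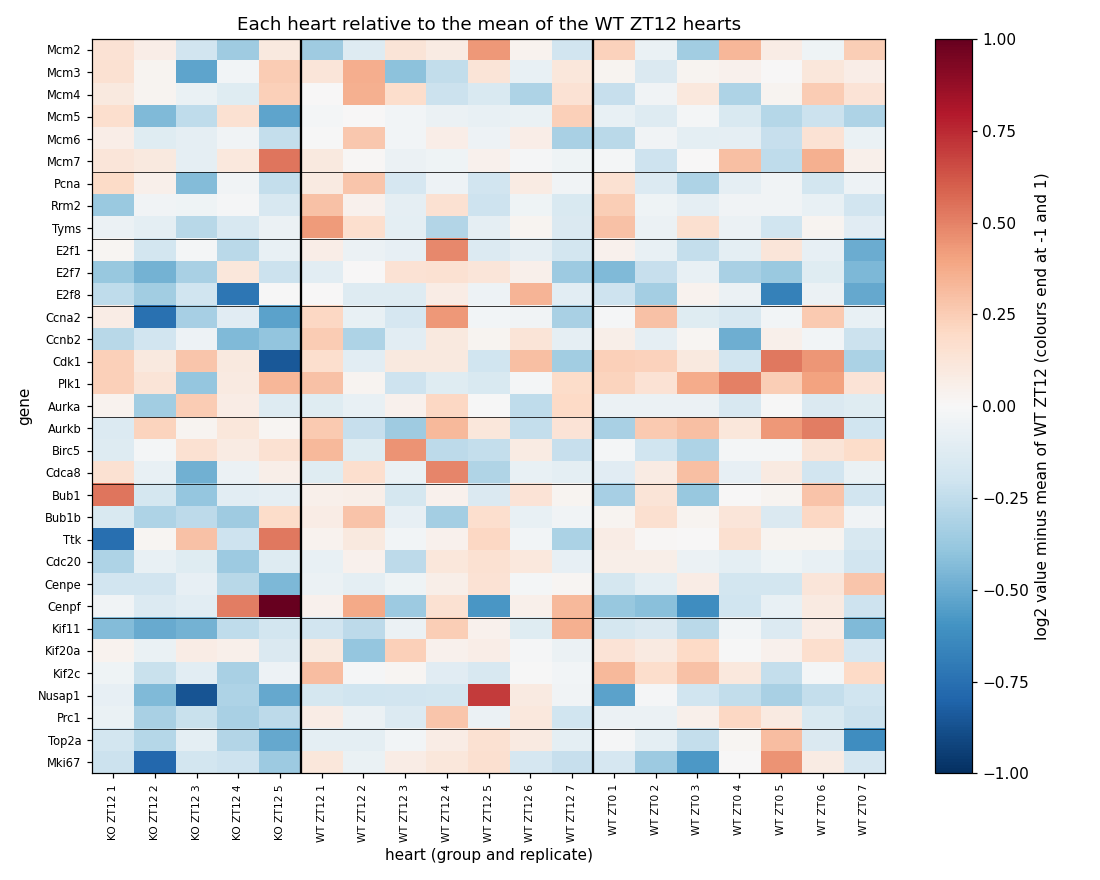
Deviation of each array from the WT ZT12 mean in log2 units for the 33 measured genes (rows, ordered by role), with KO ZT12, WT ZT12 and WT ZT0 hearts as columns from left to right. KO columns hold more values below 0 among the spindle and chromosome structure genes, and the highest KO values of Cenpf stand out in replicates 4 and 5.

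The 18 members not described one by one ran from -0.18 (Mcm5) to 0.16 (Mcm7) for KO against WT at ZT12, from -0.16 (Aurkb) to 0.17 (Mcm5) for WT at ZT12 against ZT0, and from -0.17 (Cdk1) to 0.12 (Mcm7) for KO at ZT12 against WT at ZT0. Their smallest unadjusted p-values in the limma fit were 0.104, 0.0995 and 0.206 in the same order. Over the 528 pairs of members, deviations from group means on the 19 arrays had a median Pearson correlation of 0.038, with quartiles of -0.14 and 0.21. Over the 210 pairs of the 21 members at or above the olfactory receptor level the median was 0.052, with quartiles of -0.13 and 0.22. These are descriptions, since the pairs share their arrays, and correlations this weak are no finding.

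The other genes of the pathway, in 6 lists with 154 measured of 161 genes, passed the test in shares near those of all genes. For KO against WT at ZT12, 1 rose (Cdkn1a), 0 fell and 153 did not pass (0.649% called, against 0.730% of all genes). For WT at ZT12 against ZT0, 2 rose (Wee1 and Lin9), 1 fell (Cdkn1a) and 151 did not pass (1.95%, against 1.13%). For KO at ZT12 against WT at ZT0, 3 rose (Wee1, Tfdp2 and Lin52), 0 fell and 151 did not pass (1.95%, against 1.34%). Without the 4 arrays low in Sln the same genes passed except Lin52, so 1, 3 and 2 of the 154 list genes passed in these comparisons. All genes passed there at 0.0857%, 0.951% and 0.379%, smaller shares than those of the lists, which rest on few genes. At an unadjusted p under 0.05 over all arrays, 4 of 17 E2F, RB and DREAM regulators were higher in KO against WT hearts at ZT12. That is 23.5%, against 5.35% of all genes, and 0 were lower. In the other 2 comparisons 4 and 3 were higher (against 5.76% and 6.44%) and 1 and 1 lower. Of 22 cyclins, kinases and inhibitors, 1, 3 and 2 were higher and 3, 1 and 3 lower in the same order of comparisons.

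Cdkn1a, which encodes the p21 inhibitor of cyclin-dependent kinases, was at 7.70, 6.98, 7.45, 7.54 and 7.46 in KO hearts, against 5.85, 6.29 and 6.70 (lowest, median, highest) in WT hearts at ZT12. The groups did not overlap, and Cdkn1a was 2.17-fold higher in KO hearts (log2 difference 1.12, SE 0.15; limma adjusted p = 0.000246). Without the 4 arrays low in Sln the log2 difference was 1.19 (limma adjusted p = 0.00588). WT hearts at ZT0 had Cdkn1a at 6.72, 7.12 and 7.40, so that it fell in WT hearts at ZT12 relative to ZT0 (log2 difference -0.78, SE 0.13; limma adjusted p = 0.00214). Wee1, the gene of the kinase that holds CDK1 inactive before mitosis, was at 6.45, 6.19, 6.13, 6.35 and 6.83 in KO hearts, 6.37, 6.48 and 6.66 (lowest, median, highest) in WT hearts at ZT12, and 5.29, 5.48 and 5.94 in WT hearts at ZT0. Both ZT12 groups lay above every ZT0 heart, by 0.82 log2 units in KO hearts (SE 0.11; limma adjusted p = 0.000181) and by 0.95 in WT hearts (SE 0.10; limma adjusted p = 8.40e-06). At ZT12 the difference between KO and WT hearts was -0.13 (limma adjusted p = 0.740).

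Tfdp2, which encodes a DNA-binding partner of the E2F factors, was at 8.07, 7.94, 8.03, 8.11 and 7.88 in KO hearts, 7.53, 7.72 and 7.74 (lowest, median, highest) in WT hearts at ZT12, and 7.28, 7.43 and 7.72 in WT hearts at ZT0. It rose in KO hearts relative to WT hearts at ZT0 (log2 difference 0.53, SE 0.080; limma adjusted p = 0.000779) and differed by 0.31 from WT hearts at ZT12 (limma adjusted p = 0.0811). Lin9 and Lin52 encode subunits shared by the DREAM and B-MYB complexes. Lin9, at 4.45, 4.67 and 5.06 in WT hearts at ZT12 and 4.19, 4.25 and 4.42 in WT hearts at ZT0, rose at ZT12 (log2 difference 0.40, SE 0.088; limma adjusted p = 0.0227). That call was lost without WT ZT0 replicate 1 (adjusted p = 0.0522) or 4 (0.0517) or WT ZT12 replicate 7 (0.0625). Lin52 was at 6.33, 6.46, 6.32, 6.23 and 6.73 in KO hearts and 5.88, 6.02 and 6.19 in WT hearts at ZT0 (log2 difference 0.39, SE 0.088; limma adjusted p = 0.0254). Leaving out WT ZT0 replicate 3 ended its call (adjusted p = 0.0547), as did leaving out WT ZT0 replicate 5 (0.0558), KO replicate 2 (0.0600), KO replicate 5 (0.0845) or the 4 arrays low in Sln (0.332), and so did the atrial covariate (0.193).

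**Figure D4:**
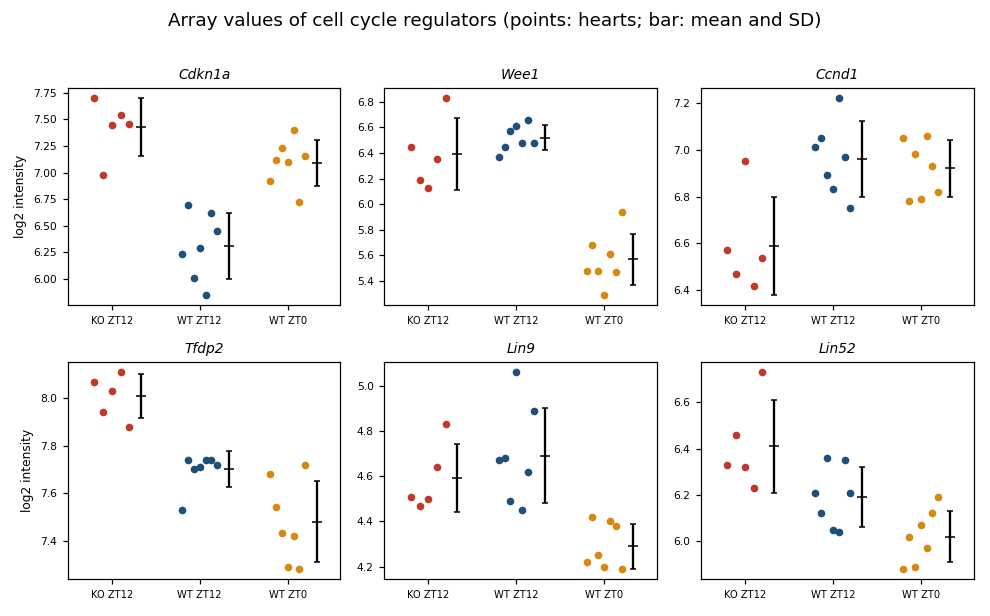
Log2 array values of 6 cell cycle regulators (points are hearts, bars the mean and SD), with KO ZT12, WT ZT12 and WT ZT0 hearts from left to right. Cdkn1a of KO hearts lies above all WT ZT12 hearts, Wee1 of both ZT12 groups lies above all ZT0 hearts, and Ccnd1 of KO and WT hearts at ZT12 overlaps.

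Ccnd1, the gene of the G1 cyclin D1, was at 6.57, 6.47, 6.95, 6.42 and 6.54 in KO hearts, against 6.75, 6.97 and 7.22 (lowest, median, highest) in WT hearts at ZT12. All KO hearts but replicate 3 lay below the lowest WT ZT12 heart, and the test was not passed (log2 difference -0.37, SE 0.094; limma adjusted p = 0.0767). Ccnd1 is named although it falls outside the rule for naming genes and was chosen after its values were seen.

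In the 4 lists of replication and division machinery 0 genes passed by limma in any comparison, where 0.730%, 1.13% and 1.34% of all genes passed. Of 40 spindle and kinetochore genes other than the members, 35 were below 0 in KO against WT hearts at ZT12 (87.5%, against 51.0% of all genes). The median log2 difference of the 40 was -0.11. At an unadjusted p under 0.05, 4 of the 40 were lower there (against 5.21% of all genes) and 0 higher. For WT at ZT12 against ZT0, 6 of the 40 were higher (against 5.76% of all genes) and 1 lower (against 5.73%). For KO at ZT12 against WT at ZT0, 4 were lower (against 6.15%) and 1 higher (against 6.44%). In WT hearts at ZT12 against ZT0, 11 were below 0 (27.5%, against 51.2%; median 0.052), and in KO hearts against WT hearts at ZT0, 26 (65.0%, against 52.2%; median -0.048). Without the 4 arrays low in Sln the counts below 0 were 33, 13 and 27 in the same order (against 51.2%, 51.5% and 52.6% of all genes). The gene of this list with the smallest p for KO against WT at ZT12 was Ckap2, which encodes a spindle-associated protein, at -0.36 (limma adjusted p = 0.177). For WT at ZT12 against ZT0 it was Cenpi, a gene of the inner kinetochore, at 0.47 (limma adjusted p = 0.116), and for KO against WT at ZT0 the checkpoint gene Bub3 at 0.18 (limma adjusted p = 0.214). Of 21 genes of condensation, anaphase and cytokinesis, 16 were below 0 in KO against WT hearts at ZT12 (76.2%, against 51.0% of all genes). The median of the 21 was -0.11, and 15 were below 0 without the arrays low in Sln. At an unadjusted p under 0.05 over all arrays, 3 of the 21 were lower there (against 5.21% of all genes) and 0 higher. For WT at ZT12 against ZT0, 4 of the 21 were higher (against 5.76% of all genes) and 2 lower (against 5.73%). For KO at ZT12 against WT at ZT0, 4 were lower (against 6.15%) and 1 higher (against 6.44%). The smallest p for KO against WT at ZT12 was that of Ect2, which directs the cleavage furrow, at -0.43 (limma adjusted p = 0.262). In the other comparisons Fbxo5, an inhibitor of the anaphase ligase, was at -0.36 for WT at ZT12 against ZT0 (limma adjusted p = 0.139), and the condensin gene Ncapd3 was at 0.30 for KO at ZT12 against WT at ZT0 (limma adjusted p = 0.0809).

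Of 47 licensing and replication fork genes, 33 were below 0 in KO against WT hearts at ZT12 (70.2%, against 51.0% of all genes), with a median of -0.044, and 32 without the arrays low in Sln. At an unadjusted p under 0.05, 2 were lower (4.26%, against 5.21% of all genes) and 1 was higher (2.13%, against 5.35%), shares no larger than those of all genes. Rpa3, a subunit of the single-stranded DNA binding protein, had the smallest p there and stood on the other side, at 0.50 (limma adjusted p = 0.198). It was at -0.52 for WT hearts at ZT12 against ZT0 (limma adjusted p = 0.103). For KO hearts against WT hearts at ZT0 the polymerase delta gene Pold3 was at 0.23 (limma adjusted p = 0.229). Of 7 nucleotide supply genes 1 was below 0 in each comparison (14.3%), and without the arrays low in Sln 2, 1 and 1 were. Shmt1, which feeds thymidylate synthesis, was at 0.21 for KO against WT at ZT12 (limma adjusted p = 0.470) and at 0.36 for KO at ZT12 against WT at ZT0 (limma adjusted p = 0.0809), and the CTP synthase gene Ctps was at 0.14 for WT at ZT12 against ZT0 (limma adjusted p = 0.469).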

How the data were processed

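Probe set summaries had been made by the authors with RMA, per the submitters' processing notes, which correct background, normalize quantiles and summarise probes. The deposited values were taken as log2 intensities, since they ran from 0.21 to 12.88, and the version of RMA is not given in the sources used. Probe sets were named from the platform annotation: of 41345, 23521 list 1 gene, 1814 several and 16010 none. Symbols were looked up in a GRCm38.p6 gene table (23328 matched, 0 changed). The 22180 genes were fitted with limma 3.58.1 in R 4.3.3 (lmFit and eBayes, 1 mean per group over 19 arrays, two-sided, Benjamini-Hochberg over all genes, called at an adjusted p under 0.05). Log2 differences had a median SE of 0.105 between KO and WT hearts at ZT12 and 0.0960 between WT groups. Members described one by one had an unadjusted p under 0.05, or were among the 3 largest differences, in any comparison. Of the other lists the called genes were named, or the gene with the smallest p. The members and lists were chosen with earlier results of these data known. Alternatives were a second normalization, centring, leaving out dim genes (mean below 3.20), averaging probe sets, only the groups compared, another eBayes setting, a replicate block, an atrial covariate and leaving out each array. Leaving out the arrays with Sln below 7, and the counts at an unadjusted p, were added after the data were seen.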

Additional observations from a re-analysis of the deposited data

Results flagged for a closer look

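Among 99 groups of member values (33 genes in 3 groups), 7 held an array that stood far from the others of its group by Dixon's test, which flags about 1 in 20 groups by chance. Among KO hearts, Cdk1 was at 2.55 in replicate 5, an array low in Sln, with the next KO heart at 3.49. Among WT hearts at ZT12, Nusap1 was at 4.07 in replicate 5, also low in Sln, with the next at 3.47, and Mcm5 was at 4.06 in replicate 7 with the next at 3.82. In the same group Kif2c was at 3.07 in replicate 1 (next 2.78), E2f1 at 4.05 in replicate 4 (next 3.64) and E2f8 at 3.48 in replicate 6 (next 3.21). Among WT hearts at ZT0, Rrm2 was at 3.82 in replicate 1 with the next at 3.55. No explanation for these values was tested.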

How the results depend on the processing

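No member passed an adjusted p under 0.05 in limma under any alternative, and the member median stayed at -0.15 to -0.093 for KO against WT at ZT12, 0.019 to 0.053 for WT at ZT12 against ZT0 and -0.12 to -0.070 for KO at ZT12 against WT at ZT0. Counts moved more; causes were not tested beyond fewer genes or arrays. For KO against WT at ZT12, all genes called (162) became 256 with dim genes left out, 72 with only the 2 groups, 270 with trend and robust eBayes, 88 with the replicate block, 19 without the arrays low in Sln and 94 to 161 without single arrays (94 without KO replicate 5). Members lower at an unadjusted p under 0.05 (11) became 6 of 21 without dim genes (28.6%, against 5.79% of all genes in that setting). They became 3 without the low-Sln arrays (9.09%, against 4.13%) and 8 to 11 without single arrays. Of the 21 brighter members 16 were below 0, and no share of all genes below 0 is given for that setting. Other list genes called (1) became 3 without dim genes and with trend, and 1 to 3 without single arrays. For WT at ZT12 against ZT0, genes called (250) were 185 to 251 without single arrays, list genes called (3) 2 to 4, lower members (1) 1 to 2 and higher members (2) 1 to 3. Higher members became 1 without dim genes and 4 without the low-Sln arrays, and the shares of all genes higher in these settings are not given here. For KO at ZT12 against WT at ZT0, genes called (298) became 455 without dim genes, 187 with the 2 groups, 182 with the block, 164 with the atrial covariate, 84 without the low-Sln arrays and 171 to 311 without single arrays. Lower members (5) became 2 of 21 without dim genes (9.52%, against 7.68% of all genes in that setting). They became 3 with the block (9.09%, against 6.15%) and 0 with the covariate (against 5.02%). Without the low-Sln arrays 1 was lower (3.03%, against 4.33%), and without single arrays 4 to 7 were. Higher members (1) became 0 without the low-Sln arrays and 0 to 1 without single arrays. Members below 0 became 14 of 21 without dim genes, again with no share of all genes given. List genes called (3) became 5 without dim genes and with trend, and 2 to 5 without single arrays.

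Of 954 values of the 15 named members under alternatives, 22 changed sign, none of them called. Without the low-Sln arrays, for KO against WT at ZT12, Plk1 was at -0.10 and Cenpf at -0.17; for WT at ZT12 against ZT0 Cenpe was at 0.00; and for KO at ZT12 against WT at ZT0 E2f7 was at -0.06 and E2f8 at 0.03. With the atrial covariate Ccna2 was at 0.04 for WT at ZT12 against ZT0 and E2f7 at -0.08 for KO against WT at ZT0. Without single arrays, for WT at ZT12 against ZT0, Ccna2 ran from -0.09 to 0.03, Cenpe from 0.00 to 0.07, Prc1 from -0.03 to 0.06 and Bub1b from -0.10 to 0.01, and for KO against WT at ZT0 E2f7 ran from -0.06 to 0.09 and E2f8 from -0.12 to 0.06. The replicate numbers did not pair the arrays (correlations of -0.07 to 0.07, 0 pairs over 0.1). With the block the Lin9 call was lost (adjusted p = 0.0745 in limma), as was the Lin52 call with only the 2 groups (0.0653). The dimness of 12 of 33 members limits what the arrays can show.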
